A study of Mus musculus with 6 samples.

Results

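Inhibitory receptors of T cells and the PD-1 ligand PD-L1 were followed as 10 genes, *Pdcd1*, *Lag3*, *Havcr2*, *Tigit*, *Ctla4*, *Cd160*, *Btla*, *Cd200*, *Cd96* and *Cd274*, of the 32285 genes counted. They were taken by name as members of this class, not by a threshold on measured values. Each gene was read as UMIs, which are molecular identifiers that each stand for 1 captured transcript. Levels are given as CPM, the UMIs of a gene per 1000000 UMIs of the kept cells of a library.

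Inhibitory receptors are placed on T cells after antigen contact and lower the signal of the T cell receptor or of CD28. Cells that meet antigen for a long time, as in tumors, are known to carry many of them at once, while stem-like cells that express *Tcf7* carry fewer. PD-L1, encoded by *Cd274*, binds PD-1 and is a classical target of interferon-γ, whose response elements in promoters include those called GAS.

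CD8 T cells were sequenced from B16-OVA tumors, a mouse melanoma line expressing ovalbumin, and from draining lymph nodes (LN), on day 12 by the series' design text, while the study's methods give a range of days that starts there. Control mice carried CD8-Cre and the Rosa26Tomato reporter, and CD8-IFNγRKO mice carried CD8-Cre, Rosa26Tomato and IFNgR1flox/flox, so that the Cre removes part of the interferon-γ receptor gene in CD8 T cells. Cells sorted as CD45+, CD3+, CD8+ and Tomato+ from 3 mice per genotype were pooled, and each tissue and genotype gave 1 library, with TCR sequencing of both tumor libraries. No comparison therefore has a replicate, no test was made, and every interval below is a 95% interval for counting error only. The labels and counts do not tie a cell to a mouse.

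Between 6639 and 8625 cells and between 28834447 and 93781747 UMIs were kept per library, with a median of 6301.5 UMIs per cell in the control tumor, 9397 in the CD8-IFNγRKO tumor, 4051 in the control LN and 3863 in the CD8-IFNγRKO LN. From 51 to 82 barcodes were shared by any pair of libraries, at most 1.24% of the smaller one. Cells were kept only with a UMI each of *Cd2*, *Cd8a* and *Cd8b1* and with fewer than 5 myeloid UMIs. The levels of these genes and of the myeloid markers are thus partly set by the filter. All 8 T cell genes, *Cd2*, *Cd8a* and *Cd8b1* included, were at 171 CPM or more in every library. The 3 CD4 T cell markers summed to at most 22.1 CPM and the 7 B cell markers to at most 26.9 CPM. The 12 myeloid markers summed to at most 20.002 CPM and the 6 melanoma markers to at most 3.37 CPM. *Ifngr1*, the targeted gene, was at 718 CPM in control and 238 CPM in CD8-IFNγRKO tumors, and at 182 and 137 CPM in LN. The counts do not show whether an *Ifngr1* UMI came from a deleted or an intact allele.

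The genes lie on chromosomes 1 (*Pdcd1* and *Ctla4*), 3 (*Cd160*), 6 (*Lag3*), 11 (*Havcr2*), 16 (*Tigit*, *Btla*, *Cd200* and *Cd96*) and 19 (*Cd274*). Promoter sequences of RefSeq (GRCm38.p6, the 250 bases before the transcript start) were given for 9 of the 10 genes, with 10 start sites, and for *Lag3* none was used. The GAS motif TTCNNNGAA, which has the same form on both strands, was found before *Cd96* and before the second start site of *Cd160*, against 7.02% of 32851 promoters. The core of the interferon-stimulated response element, 2 copies of GAAA with 2 bases between them, searched on both strands, was before none of them (2.98% of all promoters). The AP-1 motif TGANTCA was before *Havcr2* (6.75% of all promoters), the NR4A motif AAAGGTCA, searched on both strands, before none (1.34%), and no promoter of these genes held more than 1 of these motifs. The *Cd96* and *Cd160* sequences are printed because they hold the motif of the pathway that the deletion interrupts, and that of *Cd274* because it is the PD-L1 gene. Capitals mark the GAS motif.
*Cd96*, chr16:46120249-46120498, minus strand: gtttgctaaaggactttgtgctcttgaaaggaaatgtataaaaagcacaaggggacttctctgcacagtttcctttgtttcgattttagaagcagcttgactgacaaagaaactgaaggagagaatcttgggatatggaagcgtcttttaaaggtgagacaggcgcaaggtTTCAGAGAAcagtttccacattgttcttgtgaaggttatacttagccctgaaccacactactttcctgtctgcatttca
*Cd160*, chr3:96814522-96814771, minus strand: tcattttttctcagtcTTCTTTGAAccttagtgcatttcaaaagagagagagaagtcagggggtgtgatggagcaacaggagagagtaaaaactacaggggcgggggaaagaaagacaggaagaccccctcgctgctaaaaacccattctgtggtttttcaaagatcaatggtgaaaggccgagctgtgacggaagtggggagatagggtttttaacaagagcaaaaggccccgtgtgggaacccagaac
*Cd274*, chr19:29367188-29367437, plus strand: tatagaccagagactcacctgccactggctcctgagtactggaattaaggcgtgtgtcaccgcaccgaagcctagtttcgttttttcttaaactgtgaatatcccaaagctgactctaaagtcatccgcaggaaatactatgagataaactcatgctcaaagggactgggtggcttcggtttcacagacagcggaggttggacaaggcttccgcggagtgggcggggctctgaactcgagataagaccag
The GAS motif lies 79 to 71 bases before the start of *Cd96* and 234 to 226 bases before that of *Cd160*. The printed windows of *Cd160* and *Cd274*, and those of *Tigit* and *Btla*, lie inside the annotated span of each gene, which holds an earlier start. A match says only that these letters are present, and no match that they are not in this window.

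**Figure D1:**
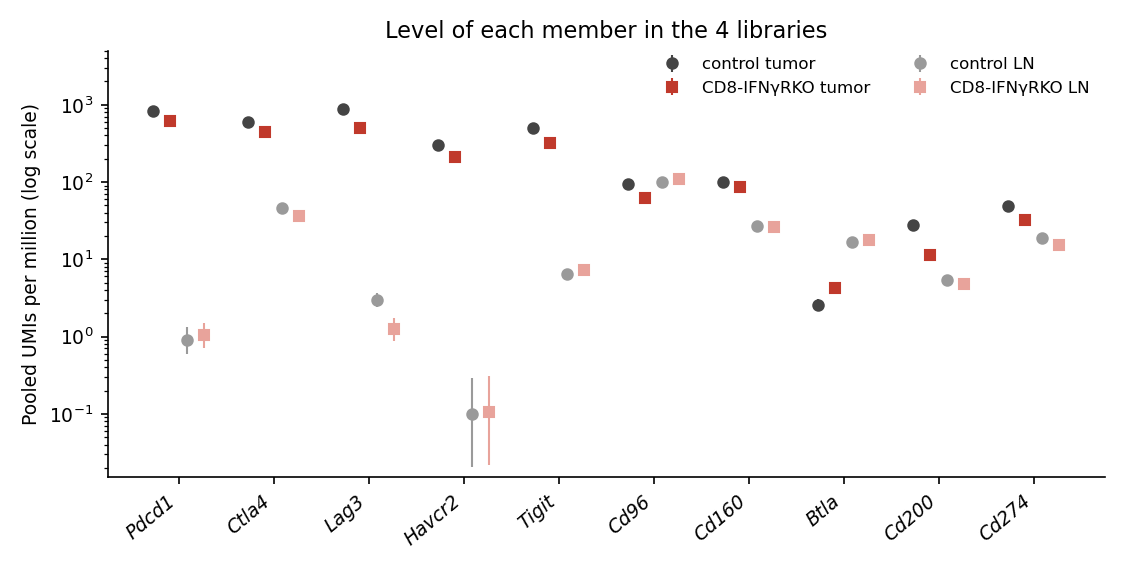
CPM of each gene (vertical axis, log scale) in the 4 libraries, with bars for the exact Poisson 95% interval of 1 library each. *Pdcd1*, *Lag3*, *Havcr2* and *Tigit* are at 211 to 893 CPM in tumors and at 7.28 CPM or less in LN, and *Btla* is lower in tumors than in LN in both genotypes.

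The first question was where the receptors are transcribed. Of the 10 genes, 8 were higher in tumor than in LN by a log2 ratio of 0.5 or more in control mice (29.5% of 8212 genes were) and in CD8-IFNγRKO mice (31.1% of 8276 genes). *Btla* was lower in both genotypes, and *Cd96* in CD8-IFNγRKO mice (25.9% and 27.8% of genes were lower, so that 55.4% and 58.9% differed in either direction). Counted per cell rather than per CPM, *Cd96* was the exception, with a log2 ratio of 0.77 in control and 0.56 in CD8-IFNγRKO mice, where the medians over all genes were 0.93 and 1.39.

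*Pdcd1* encodes PD-1, the receptor of PD-L1 and PD-L2. It was at 818 CPM (811 to 826) in the control tumor, 619 CPM (614 to 624) in the CD8-IFNγRKO tumor, 0.902 CPM in the control LN and 1.04 CPM in the CD8-IFNγRKO LN. The tumors were far above the LN, and the LN values rest on 27 and 30 UMIs and do not differ beyond counting error. *Ctla4*, whose product competes with CD28 for CD80 and CD86, was at 596 and 450.5 CPM in the tumors and at 45.8 and 36.2 CPM in LN, in control and CD8-IFNγRKO mice. It was thus the checkpoint receptor with the smallest step from LN to tumor, 3.70 and 3.64 on the log2 scale, of the 5 receptors *Pdcd1*, *Lag3*, *Havcr2*, *Tigit* and *Ctla4*.

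*Lag3*, which binds MHC class II, was at 893 CPM (885 to 901) in the control tumor, 507 CPM (502 to 511) in the CD8-IFNγRKO tumor, and 2.97 and 1.25 CPM in the LN, from 89 and 36 UMIs. *Havcr2* encodes TIM-3, a receptor of late effector and exhausted cells. It was at 305 and 211 CPM in the tumors, and only 3 UMIs of it were counted in each LN library.

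*Tigit* and *Cd96* encode receptors of CD155 and compete for it with the activating receptor CD226. *Tigit* was at 504 and 316 CPM in tumors and at 6.38 and 7.28 CPM in LN. *Cd96* went another way, with 92.9 CPM (90.5 to 95.4) in the control tumor, 62.8 CPM (61.2 to 64.5) in the CD8-IFNγRKO tumor, 101 CPM in the control LN and 108 CPM in the CD8-IFNγRKO LN. Its log2 ratio of tumor over LN was -0.12 (-0.19 to -0.06) in control and -0.78 (-0.85 to -0.72) in CD8-IFNγRKO mice.

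*Cd160* and *Btla* encode receptors of the TNF receptor family member HVEM. *Cd160* was at 99.96 and 84.96 CPM in tumors and at 26.8 and 26.5 CPM in LN. *Btla*, a receptor of resting lymphocytes, was at 2.58 CPM (2.19 to 3.02) in the control tumor, 4.30 CPM (3.89 to 4.74) in the CD8-IFNγRKO tumor, 16.7 CPM in the control LN and 17.6 CPM in the CD8-IFNγRKO LN. Its order of tumor and LN was the reverse of that of the checkpoint receptors.

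*Cd200* is a membrane protein whose receptor, CD200R1, is inhibitory, so that it acts as a ligand. It was at 27.4 CPM (26.1 to 28.8) in the control tumor, 11.4 CPM (10.7 to 12.1) in the CD8-IFNγRKO tumor, and 5.41 and 4.79 CPM in the LN. *Cd274* was at 49.1 CPM (47.3 to 50.9) in the control tumor, 32.3 CPM (31.1 to 33.4) in the CD8-IFNγRKO tumor, 18.8 CPM in the control LN and 15.4 CPM in the CD8-IFNγRKO LN. In control mice its tumor level was 1.38 above LN on the log2 scale and in CD8-IFNγRKO mice 1.06, so that PD-L1 transcripts were higher in tumor than in LN in both genotypes.

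The second question was what the deletion of the interferon-γ receptor goes with. In tumors, 6 of the 9 genes with enough UMIs were lower in CD8-IFNγRKO than in control cells by a log2 ratio of 0.5 or more and 0 were higher, where 5.48% of 7712 genes were lower and 8.29% higher (13.8% in either direction). *Cd200* differed most, at -1.27 (-1.38 to -1.16), and was followed by *Lag3* at -0.82 (-0.83 to -0.80), *Tigit* at -0.67 (-0.70 to -0.65), *Cd274* at -0.61 (-0.68 to -0.53), *Cd96* at -0.56 (-0.62 to -0.51) and *Havcr2* at -0.54 (-0.57 to -0.51). *Pdcd1* and *Ctla4*, both at -0.40, and *Cd160*, at -0.23, were lower by less. *Btla*, under 10 CPM in both tumors and so not ranked, was higher, at 0.74 (0.46 to 1.01). The median over the 9 genes was -0.56 and that over all ranked genes 0.02, and 1.84% of ranked genes were lower than *Lag3* and 0.804% lower than *Cd200*.

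These differences depend on what a transcript is counted against. The T cell list as a whole was lower in the CD8-IFNγRKO tumor, at a summed 7152 CPM against 9374 CPM, or -0.39 on the log2 scale. *Cd3e* was at -0.43 and *Cd8a* at -0.51. The cell filter itself asked for the list genes *Cd2*, *Cd8a* and *Cd8b1*. It kept 7103 of 11064 control and 8636 of 11701 CD8-IFNγRKO tumor barcodes that passed the quality limits. Of the list genes it did not ask for, *Cd3d* was at -0.38, *Cd3g* at -0.42, *Lck* at -0.19 and *Trac* at -0.15. The part of the filter in the list's difference was not tested. Cycling genes summed to 2041 and 1355 CPM and heat shock genes to 11478 and 7406 CPM in CD8-IFNγRKO and control tumors. Counted as UMIs per cell, *Pdcd1* was at 6.73 and 6.84 and *Ctla4* at 4.90 and 4.98 in CD8-IFNγRKO and control tumor cells. On that scale *Lag3* was at 5.51 and 7.46 UMIs, *Tigit* at 3.43 and 4.21, *Havcr2* at 2.29 and 2.55, and *Cd200* at 0.123 and 0.229. Of the 6 genes, only *Cd200* then stayed beyond the limit (log2 ratio -0.89), *Lag3* came to -0.44, *Tigit* to -0.30 and *Cd160* to 0.14, while the median of all ranked genes moved to 0.40. Relative to 1000 UMIs of the T cell list the values were nearly the same (*Lag3* -0.43, *Pdcd1* -0.01, *Cd200* -0.88, median of all genes 0.41). Less of a receptor's RNA per cell and more RNA of other genes cannot be told apart on the CPM scale. UMIs per cell depend in turn on how deeply each library was captured and sequenced. Their median was 9397 in the CD8-IFNγRKO and 6301.5 in the control tumor. With 1 library per genotype, RNA content and depth cannot be told apart on that scale.

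**Figure D2:**
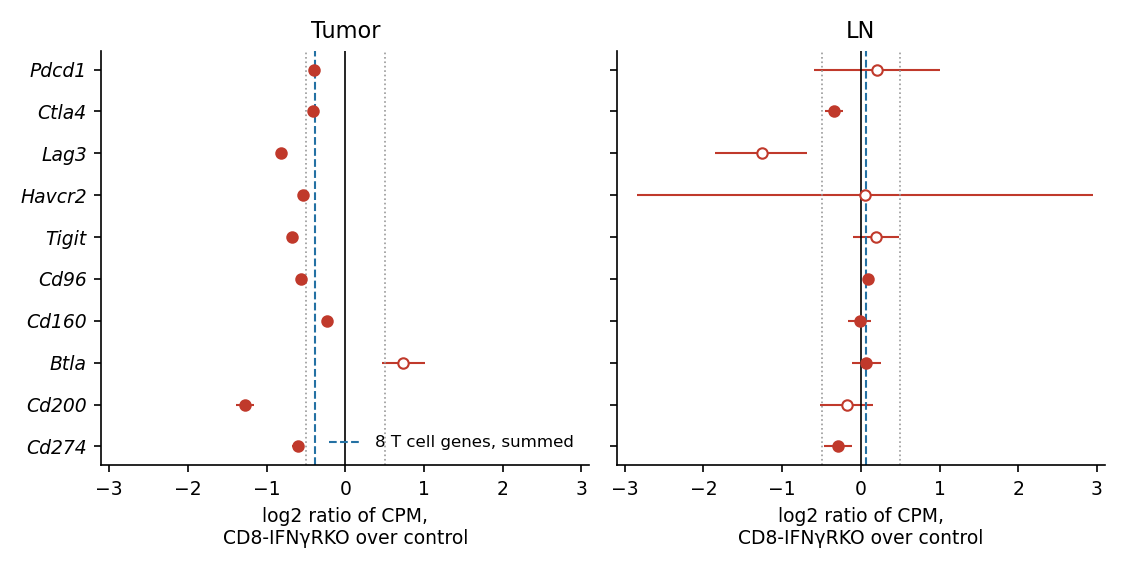
Log2 ratio of CPM, CD8-IFNγRKO over control (horizontal axis), for each gene in tumor and LN, with exact 95% intervals for counting error. Dotted lines mark -0.5 and 0.5, the dashed line the 8 T cell genes summed, and open circles genes with too few UMIs to be ranked. In tumor, *Cd200*, *Lag3*, *Tigit*, *Cd274*, *Cd96* and *Havcr2* lie left of the dashed line at -0.39. *Pdcd1* and *Ctla4* lie close to it, and *Cd160* and *Btla* lie right of it.

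In LN, 5 genes had enough UMIs and 0 of them differed by 0.5 or more (0.777% of 7464 genes did, 0.295% higher and 0.482% lower). With so small a share past the limit, 0 of 5 does not set these genes apart from others. *Ctla4* was at -0.34 (-0.46 to -0.22) and *Cd274* at -0.29 (-0.47 to -0.11), *Cd160* at -0.02 and *Btla* at 0.07, and *Cd96* was slightly higher, at 0.10 (0.02 to 0.17). Of the 7464 genes, only 75 had a lower ratio than *Ctla4* and 112 a lower ratio than *Cd274*. For *Cd160*, *Btla* and *Cd96* the numbers were 2412, 4859 and 5474. *Ctla4* and *Cd274* were thus among the lowest genes in LN, within the limit. *Lag3* was lower there too, at -1.25 (-1.85 to -0.68), but at under 3 CPM it was not ranked.

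The tumor difference was looked for within like cells. Between cells with and without a UMI of the cycling gene *Mki67*, the log2 ratio of *Lag3* was -0.66 and -0.82, that of *Tigit* -0.46 and -0.70 and that of *Cd200* -1.41 and -1.22. In cells under 5000, of 5000 to 10000 and over 10000 UMIs, *Lag3* was at -0.94, -0.64 and -0.79, and *Havcr2* at -0.80, -0.71 and -0.45. *Pdcd1* and *Ctla4* were lower in each of these classes too, at -0.59 to -0.28. *Cd160* was at -0.32 in cells under 5000 UMIs, at 0.08 in those of 5000 to 10000 and at -0.35 in deeper ones. *Cd274* was at -0.19 in cells under 5000 UMIs and -0.58 in those over 10000. The *Cd274* ratio thus lay further from 0 in deeper cells, with intervals of -0.38 to -0.0024 and -0.68 to -0.47, and the difference between depth classes was not tested.

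Genes of 4 related lists were read in the same contrast, where 5.48% of all ranked genes were lower in tumors and 0.777% differed in LN in either direction. Of 18 ligands, partners and competing activating receptors, 11 were ranked and 6 lower, among them *Cd86* at -0.88, *Icos* at -0.82, *Cd200r1* at -0.73 and *Cd80* at -0.56. *Cd200r1* encodes the receptor of *Cd200*, and *Cd80* and *Cd86* the ligands of CTLA-4. Myeloid cells also express *Cd86*, *Cd80*, *Cd200r1* and *Vsir*, and 10 of the 12 myeloid markers were lower in the CD8-IFNγRKO tumor and 2 higher, with a summed level of 18.2 against 20.002 CPM in control. From the control to the CD8-IFNγRKO tumor, *C1qa* went from 0.658 to 0.203 CPM, *C1qb* from 1.21 to 0.554, *Lyz2* from 0.641 to 0.235 and *Itgax* from 4.10 to 6.61, and the part of such cells in the result was not tested. Of 15 other inhibitory receptors, 9 were ranked and 2 lower, *Vsir*, which encodes VISTA, at -0.64 and *Cd6* at -0.53. Of 19 genes of inhibitory signaling such as phosphatases and ubiquitin ligases, all were ranked and 0 reached the limit, and their median was -0.10. Of 16 regulators of exhaustion, 14 were ranked and 4 lower, namely the activity-induced nuclear receptors *Nr4a3* at -1.21, *Nr4a1* at -1.08 and *Nr4a2* at -0.99, and *Nfatc1* at -0.62, while *Tox* was at -0.05. In none of these lists was a ranked gene higher in tumors by 0.5 or more, where 8.29% of all ranked genes were. In LN 0 of their genes reached the limit in either direction. With only 0.777% of all genes past it, that does not set the lists apart. These values carry the same dependence on the T cell list as those of the receptors.

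Receptors per cell were counted at equal depth, for which 1600 UMIs were drawn at random from every cell and cells with fewer were left out (701 and 278 in the control and CD8-IFNγRKO tumor, 237 and 41 in the LN). The 9 genes other than *Cd274* were counted and are called receptors here, with *Cd200* among them although it acts as a ligand. Without *Cd200*, 68.8% of control and 47.8% of CD8-IFNγRKO tumor cells held 3 or more of the other 8. At that depth, control tumor cells held a UMI of 3.16 ± 1.35 receptors (mean ± SD over 6393 cells) and CD8-IFNγRKO tumor cells of 2.46 ± 1.32 (8347 cells). In control, 69.6% of tumor cells (68.5 to 70.7) had 3 or more receptors and in CD8-IFNγRKO 48.3% (47.2 to 49.4), a difference of -21.3 percentage points (-22.8 to -19.7). In LN the shares were 0.234% and 0.224%, from 15 cells each. Without thinning they were 90.5% and 88.7% in tumors, where most cells pass the limit of 3, and 3.40% and 2.53% in LN. At 4000 UMIs, where fewer cells are deep enough, the tumor shares were 96.4% and 88.9%, so the size of the difference depends on the depth at which receptors are counted. Drawing equal UMIs reads a receptor as a share of the RNA of its cell, as CPM does. Fewer receptor transcripts per cell and more RNA of other genes cannot be told apart here either. Among tumor cells without a *Mki67* UMI the thinned shares were 70.6% and 48.6%, and among those with one 61.3% and 47.0%, while a *Mki67* UMI was found in 10.8% of control and 18.2% of CD8-IFNγRKO cells.

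**Figure D3:**
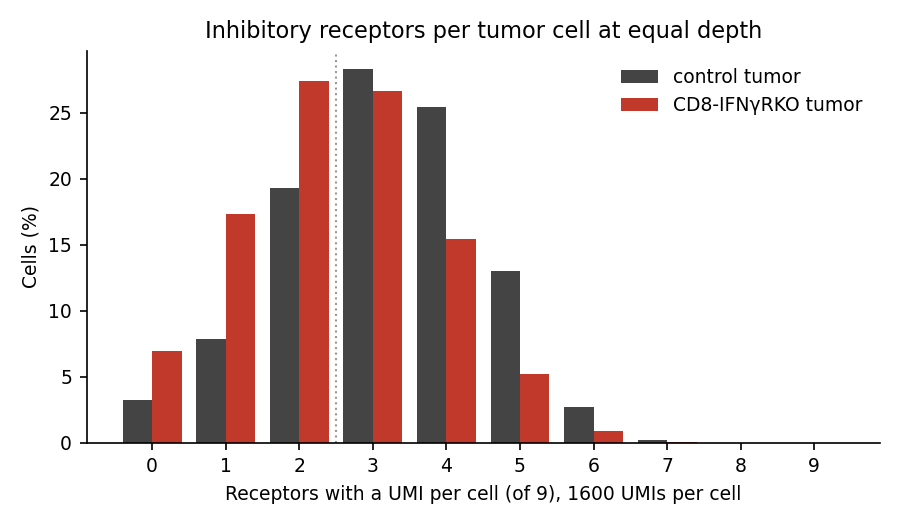
Share of tumor cells (vertical axis, percent) by the number of 9 receptors with a UMI (horizontal axis) after thinning to 1600 UMIs, in control (grey) and CD8-IFNγRKO (red). The dotted line marks the limit of 3, which 69.6% of control and 48.3% of CD8-IFNγRKO cells reach.

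At this depth *Lag3* was found in 69.1% of control and 51.3% of CD8-IFNγRKO tumor cells, *Pdcd1* in 67.7% and 58.0%, *Ctla4* in 57.3% and 46.2%, *Tigit* in 54.9% and 39.3%, and *Havcr2* in 34.9% and 26.4%. Over all UMIs these shares were 89.4% and 85.0%, 88.2% and 88.1%, 86.0% and 81.9%, 85.3% and 81.3%, and 70.1% and 67.7%, in the same order. So the gap between genotypes in the share of cells with a receptor was wide at equal depth and narrow at the depth of each library. Free RNA can add UMIs to any droplet, and at most 5 myeloid-like or B-cell-like barcodes without CD3 UMIs were found in either tumor library, too few to measure it. In the CD8-IFNγRKO LN, 21 B-cell-like barcodes (median 2410 UMIs) held a UMI of *Pdcd1*, *Lag3*, *Havcr2*, *Tigit*, *Ctla4*, *Cd160* or *Cd96* in 0 of 21. The exact interval of such a share reaches 16.1%. They held *Btla* in 5 and *Cd200* and *Cd274* in 3 each, genes that B cells can express. That whole library held only 30, 36 and 3 UMIs of *Pdcd1*, *Lag3* and *Havcr2*, so these barcodes cannot measure free receptor RNA in tumors. Among tumor cells of clones of 1 cell, at the same thinned depth, *Havcr2* was found in 6 of 180 control (3.33%, 1.23 to 7.11) and 2 of 351 CD8-IFNγRKO cells (0.570%, 0.0691 to 2.04), and *Lag3* in 15.6% (10.6 to 21.7) and 4.56% (2.63 to 7.30).

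Pairs of *Pdcd1*, *Lag3*, *Havcr2*, *Tigit* and *Ctla4* were found in the same cell at 1.03 to 1.10 times the product of their single shares in control and 1.05 to 1.15 times in CD8-IFNγRKO tumors. Most of their overlap at the thinned depth was thus what the single shares give. A thinned cell can lose all UMIs of a receptor that it expresses, and high single shares limit how far a pair can exceed the product. These values therefore cannot show whether the receptors are expressed independently of each other within a cell. *Pdcd1* and *Lag3* were found together in 49.01% of control tumor cells (47.8 to 50.2) and 32.2% of CD8-IFNγRKO tumor cells (31.2 to 33.2). Of those cells, 24.9% in control and 13.9% in CD8-IFNγRKO also held both *Havcr2* and *Tigit*, and 25.3% and 38.1% held neither. Among pairs with at least 20 cells in both tumors, *Cd160* with *Cd200* stood highest above the product of the single shares, at 1.26 times it in control (42 cells) and 1.47 times in CD8-IFNγRKO (26 cells). This pair was picked as the highest, and no interval was computed for it. *Tigit* with *Cd200* was at 0.94 times in control and 1.32 times in CD8-IFNγRKO, so values of pairs with *Cd200* vary.

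Cells with a *Tcf7* UMI held fewer receptors in both genotypes. Stem-like T cells express *Tcf7*, but it was also at 579 and 553 CPM in the control and CD8-IFNγRKO LN. At 1600 UMIs, 32.3% of control and 20.8% of CD8-IFNγRKO tumor cells with a *Tcf7* UMI had a *Pdcd1* UMI. The set may thus hold cells other than PD-1-positive stem-like cells, and their part in the result was not tested. Of control tumor cells with a *Tcf7* UMI at 1600 UMIs, 23.7% (44 of 186, 17.7 to 30.4) had 3 or more receptors, against 71.0% of those without. In CD8-IFNγRKO it was 12.8% (56 of 438, 9.80 to 16.3) against 50.3%. The difference was -47.3 points (-53.0 to -40.6) in control and -37.5 points (-40.5 to -33.9) in CD8-IFNγRKO tumors. Cells with a *Tcf7* UMI were shallower, with a median of 3836.5 and 3879 UMIs against 7015 and 10097 in the others, before thinning. Without thinning the shares were 56.2% and 92.4% in control and 46.3% and 93.2% in CD8-IFNγRKO tumors. At 1000 UMIs the CD8-IFNγRKO difference was -18.6 points.

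By gene, *Havcr2* showed the widest gap, with 97.5 CPM in cells with and 308 CPM in cells without a *Tcf7* UMI in control (log2 ratio -1.66), and 36.9 and 215 CPM in CD8-IFNγRKO tumors (-2.54). *Lag3* was at -1.13 and -1.29, *Pdcd1* at -1.003 and -1.41, *Ctla4* at -0.56 and -1.10, and *Tigit* at -0.67 and -0.68, in control and CD8-IFNγRKO. The gap was narrower for *Tigit* than for *Havcr2* in both genotypes. *Cd160* was at -0.33 and -0.17, from 81 and 162 UMIs in the cells with a *Tcf7* UMI. *Cd200* was at -0.64 and -0.71, from only 18 and 15 UMIs in those cells. *Btla* went the other way, at 1.24 and 1.78, though from 6 and 30 UMIs in the cells with a *Tcf7* UMI, and the control interval (-0.23 to 2.40) includes 0. *Cd96* was at 0.13 and 0.57 and *Cd274* at 0.18 and 0.56, so that neither the CD155 receptor CD96 nor PD-L1 was lower in these cells.

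Within the cells with a *Tcf7* UMI, the CD8-IFNγRKO tumor was below the control tumor in *Havcr2* at -1.40, *Lag3* at -0.96, *Ctla4* at -0.93, *Pdcd1* at -0.80 and *Tigit* at -0.68 on the log2 scale. Within the cells without one, the ratios were -0.52, -0.81, -0.39, -0.39 and -0.67. A *Tcf7* UMI was found in 186 of 6393 and 438 of 8347 cells, so the ratio over all cells was close to that of the cells without one.

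**Figure D4:**
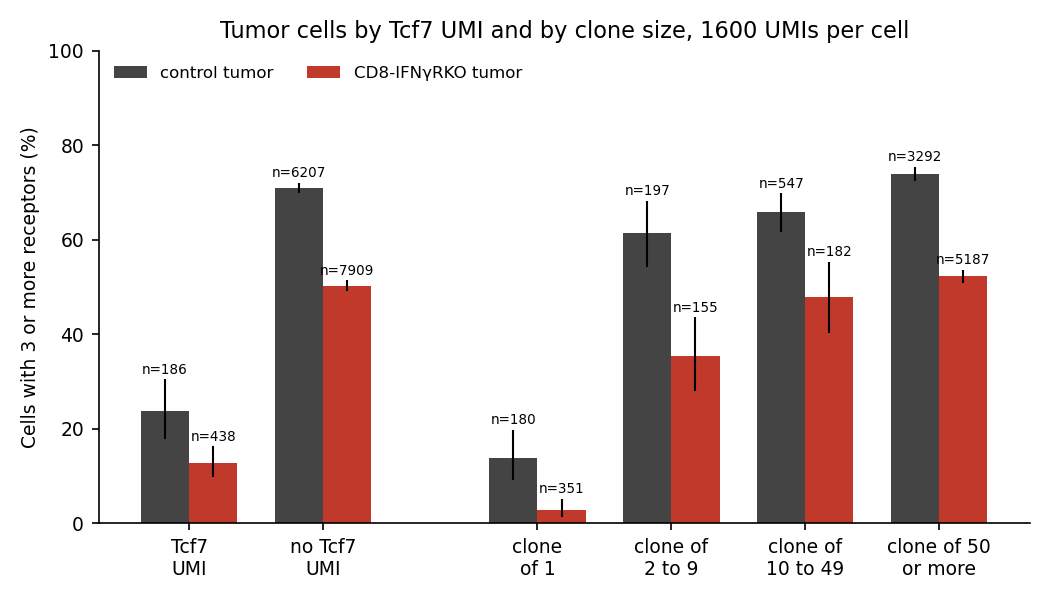
Share of tumor cells with 3 or more of 9 receptors at 1600 UMIs (vertical axis, percent, with exact binomial 95% intervals and the number of cells above each bar) by *Tcf7* UMI and by clone size, in control (grey) and CD8-IFNγRKO (red). The lowest bars are cells with a *Tcf7* UMI and clones of 1 cell, and the share in clones of 1 is 13.9% and 2.85%.

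Cells of a tumor library were put into 1 clone when their TCR α and β chains were identical in V gene, J gene and CDR3 nucleotide sequence. Paired chains were found for 60.4% of control and 68.8% of CD8-IFNγRKO tumor cells, and these fell into 260 and 429 clones, of which 183 and 364 held 1 cell. Cells of clones of 1 cell had 3 or more receptors in 13.9% of control (25 of 180, 9.19 to 19.8) and 2.85% of CD8-IFNγRKO cells (10 of 351, 1.37 to 5.18). Clones of 2 to 9 cells were at 61.4% and 35.5%, those of 10 to 49 cells at 65.8% and 47.8%, and those of 50 or more at 74.0% and 52.3%. The step from 1 cell to 2 to 9 cells was wider than all later ones in both genotypes. From clones of 1 cell to clones of at least 10, the share differed by 58.9 points (53.0 to 63.5) in control and 49.3 points (46.6 to 51.2) in CD8-IFNγRKO. Without thinning these clones stood at 36.6% and 97.7% in control and at 18.1% and 97.6% in CD8-IFNγRKO. The CD8-IFNγRKO difference was 26.1 points at 1000 UMIs, 75.7 at 4000 UMIs and 79.5 without thinning, and kept its direction.

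Clone size and *Tcf7* went together. A *Tcf7* UMI was found in 40.6% of control and 54.1% of CD8-IFNγRKO cells in clones of 1, and in 0.608% and 0.925% of those in clones of 50 or more. Cells of clones of 1 cell without a *Tcf7* UMI were also low in receptors, with 3 or more in 17.8% (19 of 107) of control and 4.35% (7 of 161) of CD8-IFNγRKO cells. In clones of at least 10 cells, those with a *Tcf7* UMI had 3 or more in 52.9% (18 of 34) and 35.2% (19 of 54), against 73.0% and 52.3% of those without. Low receptor number was thus not limited to cells with a *Tcf7* UMI, although at 1600 UMIs a cell can express *Tcf7* with no UMI of it.

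By gene, from clones of 1 cell to clones of 50 or more, *Havcr2* went from 47.1 to 337 CPM in control and from 17.2 to 221 CPM in CD8-IFNγRKO. *Lag3* went from 225 to 947 CPM and from 57.2 to 524 CPM, and *Pdcd1* from 220.3 to 889.6 CPM and from 106 to 647 CPM. These 3 genes had the widest steps in both genotypes. *Ctla4* went from 399 to 606 CPM in control and from 112 to 457 CPM in CD8-IFNγRKO, and *Tigit* from 213 to 527 CPM and from 96.2 to 319 CPM. *Btla* was lower in large clones, at 2.09 against 7.67 CPM in control and 3.44 against 18.9 CPM in CD8-IFNγRKO. *Cd160* was at 51.5 CPM in clones of 1 and 106 CPM in clones of 50 or more in control, but at 88.1 and 82.0 CPM in CD8-IFNγRKO. *Cd274* was at 43.8 and 51.7 CPM in control (log2 ratio 0.24) and at 48.1 and 30.3 CPM in CD8-IFNγRKO (-0.66), from 40 and 84 UMIs in clones of 1.

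Between genotypes, clones of 1 cell differed in *Lag3* by -1.97, in *Ctla4* by -1.84, in *Havcr2* by -1.46, in *Tigit* by -1.14 and in *Pdcd1* by -1.05 on the log2 scale, and *Cd160* was higher in CD8-IFNγRKO, at 0.78 (0.30 to 1.28). In clones of 50 or more, *Cd274* was at -0.77, *Lag3* at -0.85, *Cd200* at -1.25 and *Cd160* at -0.37.

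Single clones varied as well. There were 22 clones of at least 20 cells in the control tumor and 25 in the CD8-IFNγRKO tumor, and they share a library and are not replicates of a genotype. *Lag3* was between 426 and 1521 CPM over control clones (median 965) and between 404 and 780.1 CPM over CD8-IFNγRKO clones (median 528), and 17 of 22 control clones were above the highest CD8-IFNγRKO clone. *Pdcd1* was between 199.9 and 1014 CPM (median 859) and between 431 and 803 CPM (median 626), with 13 control clones above all CD8-IFNγRKO clones. For *Ctla4* there were 12 such clones, for *Tigit* 11, for *Havcr2* 10, for *Cd200* 9, for *Cd96* 7, for *Cd274* 4 and for *Cd160* 0. Counted as UMIs per cell of the clone, a scaling added after seeing the data, such clones numbered 6 for *Lag3*, 4 for *Cd200*, 3 for *Cd274*, 2 for *Pdcd1*, 1 for *Tigit* and *Cd160*, and 0 for *Havcr2*, *Ctla4* and *Cd96*. On neither scale were such clones counted for all genes, so these numbers do not show a trait particular to the receptors. On that scale the median clone held 6.72 UMIs of *Lag3* per cell in control and 6.09 in CD8-IFNγRKO. It held fewer of *Pdcd1* in control, 5.38 against 6.67, and of *Ctla4*, 3.73 against 4.88. Cells without paired chains belong to no clone. Among cells deep enough for thinning, their median was 10899 UMIs in control and 7978.5 in CD8-IFNγRKO. In clones of at least 10 cells it was 6393 and 10554. Clones thus left out deeper cells in control and shallower cells in CD8-IFNγRKO, and the part of this was not tested. Over all tumor cells *Pdcd1* was at 6.84 UMIs per cell in control and 6.73 in CD8-IFNγRKO. The medians of *Cd160* in CPM, 99.2 and 90.8 CPM, were close beside ranges of 31.5 to 139 and 25.5 to 155 CPM. *Cd200* was at 14.0 CPM in the largest control and 13.5 CPM in the largest CD8-IFNγRKO clone. In the second largest it was at 41.2 and 13.7 CPM. Over all clones of at least 20 cells it was between 0 and 56.0 CPM (median 16.9) in control. In CD8-IFNγRKO these clones were between 0 and 22.1 CPM (median 7.35). Over these clones the share of cells with 3 or more receptors was between 25.9% and 89.7% (median 69.6%) in control and between 36.1% and 66.2% (median 53.0%) in CD8-IFNγRKO.

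**Figure D5:**
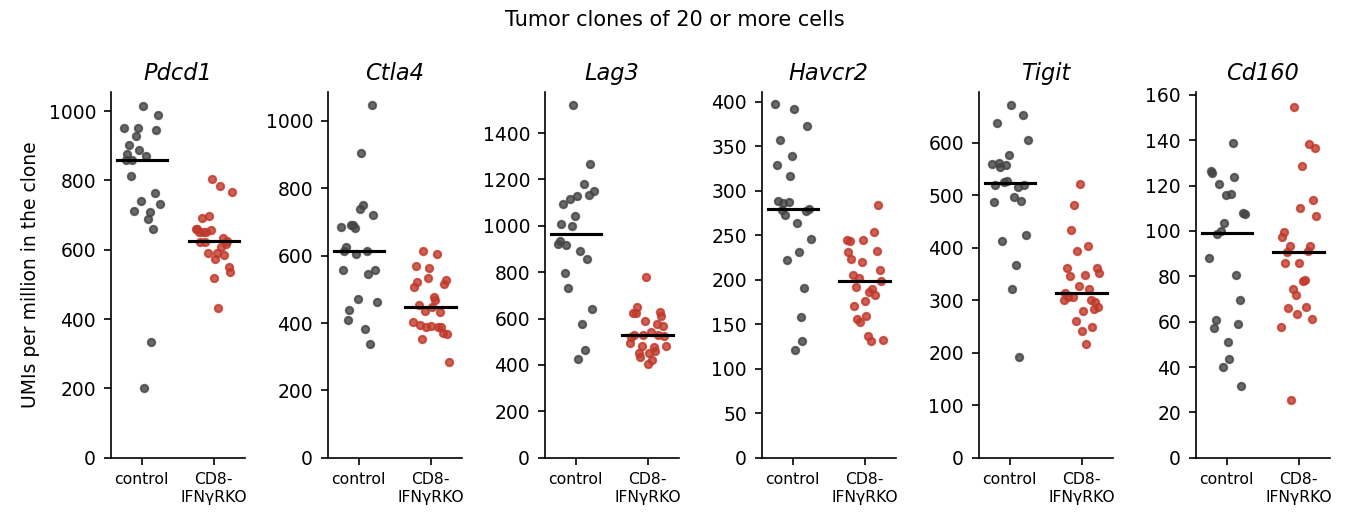
CPM (vertical axes, from 0, 1 scale per gene) of 6 receptor genes in each tumor clone of at least 20 cells, 22 control and 25 CD8-IFNγRKO clones, with a line at the median. The clouds of *Lag3* lie apart the most of these 6, with 17 control clones above every CD8-IFNγRKO clone in CPM (6 in UMIs per cell), those of *Cd160* overlap throughout, and 2 control clones lie low in *Pdcd1*. Such clones were not counted for all genes.

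Among control clones, 2 stood apart, of 35 and 29 cells. They were at 199.9 and 333 CPM of *Pdcd1*, where every other control clone was at 659 CPM or more, and also held the lowest *Havcr2*, *Lag3* and *Tigit* levels, 122 and 131 CPM, 426 and 465 CPM, and 322 and 192 CPM. *Ctla4* was not low in them, at 904 and 545 CPM. Their cells were shallow, with a median of 3264 and 3502 UMIs. In them 17.6% and 7.41% of cells had a *Tcf7* UMI and 29.4% and 25.9% had 3 or more receptors.

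The genes most like each receptor over clones were sought among 2685 genes at 50 CPM or more, by Pearson's r of log2(CPM + 10) within each tumor. The points share their library, and clones differ in cells and so in depth. For *Pdcd1* they were *Tigit* (r = 0.73 over 22 control and 0.73 over 25 CD8-IFNγRKO clones), *Tox* (0.73 and 0.70) and *Ikzf3* (0.72 and 0.64). For *Tigit* they were *Pdcd1*, *Ier5l* (0.73 and 0.71) and *Nkg7* (0.83 and 0.68), and for *Lag3* *Pglyrp1* (0.76 and 0.71), *Ubl5* (0.71 and 0.79) and *Ctsb* (0.69 and 0.67). For *Havcr2* they were *Ptms* (0.73 and 0.77), *Lgals1* (0.79 and 0.69) and *Tmbim4* (0.71 and 0.66), for *Ctla4* *Prr13* (0.69 and 0.70), *Cxcr6* (0.73 and 0.65) and *Jund* (0.66 and 0.65), and for *Cd160* *Bccip* (0.66 and 0.64), *Canx* (0.59 and 0.64) and *Uqcrfs1* (0.59 and 0.67). Without the 2 clones farthest from the median of *Pdcd1*, r of *Pdcd1* and *Tigit* was 0.31 in control and 0.58 in CD8-IFNγRKO, so in control it rests on the 2 clones described above. *Havcr2* and *Pdcd1* had an r of 0.82 in control (0.65 without the 2 clones) and -0.07 in CD8-IFNγRKO. Leaving out the 2 clones farthest in the first gene of a pair also lowered other control values. For *Pdcd1* and *Lag3*, r went from 0.73 to 0.24, and for *Lag3* and *Tigit* from 0.82 to 0.69. The like genes other than the receptors were not checked in this way.

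In LN, cells were set apart by UMIs of *Izumo1r*, which encodes folate receptor 4, and of *Ccl5*, a chemokine of effector and memory cells. *Ctla4* was found in 18.9% (48 of 254, 14.3 to 24.3) of control LN cells with an *Izumo1r* UMI and in 5.20% of those with neither, at 1600 UMIs and median depths of 4079 and 4038 UMIs. In CD8-IFNγRKO it was 11.8% (22 of 187, 7.52 to 17.3) and 4.55%, at 3823 and 3809 UMIs. In CPM, *Ctla4* was at 173 and 108 in these cells of control and CD8-IFNγRKO LN, and at 41.8 and 35.8 in the cells with neither. In cells with *Ccl5* and no *Izumo1r* UMI it was at 30.9 and 14.8 CPM, from 82 and 32 UMIs. The log2 ratio of the genotypes was -1.06 (-1.70 to -0.46) in these *Ccl5* cells. It was -0.68 (-1.06 to -0.31) in *Izumo1r* cells and -0.22 (-0.35 to -0.10) in cells with neither. *Lag3* was at 23.4 CPM from 27 UMIs in control *Izumo1r* cells and at 3.68 CPM from 3 UMIs in those of CD8-IFNγRKO, and *Cd200* at 21.7 and 13.5 CPM. *Tigit* was highest in cells with *Ccl5* and no *Izumo1r* UMI, at 17.3 and 16.6 CPM against 5.26 and 6.43 CPM in the cells with neither. *Cd160* was at 49.03 and 42.1 CPM in the *Ccl5* cells against 24.4 and 24.8 CPM in those with neither. In *Izumo1r* cells *Cd160* was at 29.4 and 38.1 CPM, from 34 and 31 UMIs, so in CD8-IFNγRKO it lay close to the *Ccl5* cells. *Cd96* was lower in the *Ccl5* cells, at 81.8 and 78.6 CPM, than in the cells with neither, at 102 and 109 CPM.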

How the data were processed

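Single-cell RNA sequencing of the 5′ end (10x) was done on sorted CD8 T cells of 1 library per tissue and genotype, from 3 pooled mice each, and TCR sequencing on both tumor libraries. The authors mapped reads with Cell Ranger 6.0.0 to mm10 and deposited, per library, UMI counts for all genes in the called cells, and counts of reads and UMIs per TCR contig. Filters followed the study: a cell needed a UMI of *Cd2*, of *Cd8a* and of *Cd8b1*, between 200 and 6000 genes, mitochondrial UMIs of 3% or less and no single gene over 20%. Cells with 5 or more myeloid UMIs (9, 11, 2 and 1 per library) were left out. Doublets were not called. Counts were summed per library into CPM with exact Poisson intervals, ratios have conditional binomial intervals, shares Clopper-Pearson intervals and their differences Newcombe intervals, all at 95% and for counting error only, with more UMIs giving narrower ones. A gene was ranked when it reached 10 CPM in one library or the other and 100 UMIs in the pair, and a log2 ratio of 0.5 was the limit used. With 1 library per group no test was possible and no p-value was computed. A clone needed both chains, each the one with most UMIs. The genes and lists were chosen with earlier results of these data known. The text names the 10 genes, the 3 genes most like 6 of them, up to 4 genes per list beyond the limit by size, and *Ifngr1*. LN cell sets by *Izumo1r* and *Ccl5* were planned with the other comparisons, but also with earlier results of these data known. The *Ctla4* share in *Izumo1r* cells is therefore not an independent finding. The 2 low control clones were named after their values were seen. The code was tested on simulated data and run in Python 3.11.15 with scipy 1.17.1, numpy 2.4.6, matplotlib 3.10.9 and pandas 2.3.3.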

Additional observations from a re-analysis of the deposited data

Results flagged for a closer look

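*Cd96* differed between genotypes in opposite directions in the tissues, the CD8-IFNγRKO level being lower in tumor (log2 ratio -0.56) and higher in LN (0.10), where both counting intervals leave out 0. The difference between the tissues was not tested, since each is 1 library against 1 library. Counted per cell or against the T cell list, the tumor value was -0.18 or -0.17 and the LN value 0.02 (-0.05 to 0.09) or 0.03 (-0.04 to 0.10), whose intervals include 0.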

How the results depend on the processing

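Each result was recomputed with other filters on cells and genes, other library sizes, thinning depths, seeds and receptor limits, and 2 scalings, UMIs per cell and UMIs of the T cell list as library size, were added after seeing the data. No paired analysis was possible because each comparison is of 1 library with 1 library, which leaves fewer than 2 pairs. With a single library per group, no left-out replicate could be tried either.

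Genes lower in the CD8-IFNγRKO tumor by the limit numbered 6 in the main setting and 1 under both added scalings. Of all ranked genes, 5.48% were lower in the main setting, 1.58% against the T cell list and 1.61% per cell. With 10 CPM added, the median of the 9 ranked genes was -0.499, and for the mean over cells it was -0.479. Fewer than 6 genes thus reached the limit in these 2 settings, where 3.22% and 5.04% of all ranked genes were lower. Over the planned settings *Cd200* ranged from -1.27 to -0.81, *Cd96* from -0.59 to -0.48 and *Cd274* from -0.69 to -0.47. A minimum of 50 CPM left 7 genes ranked, without *Cd200* and *Cd274*. Without a CPM minimum, 1 gene was higher in the CD8-IFNγRKO tumor (*Btla*) and 1 lower in LN (*Lag3*). In that setting 13.8% of 13296 genes were higher in tumor and 4.09% of 12052 were lower in LN. These counts thus do not set the genes apart from others. Genes lower in tumor than in LN numbered 2 in CD8-IFNγRKO and 1 under a minimum of 50 CPM or per cell, and 1 in control, which became 0 under 50 CPM and 2 against the T cell list. Of all ranked genes, 27.8% were lower in CD8-IFNγRKO, 23.8% under 50 CPM and 4.76% per cell. In control, 25.9% were lower, 21.9% under 50 CPM and 54% against the T cell list. *Cd96* in CD8-IFNγRKO turned from -0.78 to 0.56 per cell, where the median of all genes was at 1.39. Of all ranked genes beyond the limit in tumors, 60.2% were higher in CD8-IFNγRKO, 95.9% against the T cell list and 95.7% per cell, and in LN 37.9%, 23% and 22.6%. For tumor over LN in control, 53.3% were higher, 33.9% with TCR, ribosomal, heat shock and mitochondrial UMIs taken from the library size, 20.8% against the T cell list and 91.4% per cell. In CD8-IFNγRKO it was 52.8%, 36% with those UMIs taken out and 94.6% per cell.

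The difference of genotypes in tumor cells with 3 or more receptors, -21.3 points, was -7.51 at 4000 UMIs, -1.82 without thinning, -23.3 with another seed and -13.2 for 2 or more receptors, and in LN it was -0.294 at 4000 UMIs and -0.878 without thinning. By *Tcf7* UMI, the control difference was -34.0 at 1000 UMIs, -37.3 at 4000 and -36.2 without thinning, and the CD8-IFNγRKO difference -18.6 at 1000, -46.1 at 4000, -46.8 without thinning, -33.4 with another seed, -33.7 for 5 receptors, -46.9 for 2 or more and -33.1 with *Tcf7* read over all UMIs. By clone size, control was at 40.6 at 1000 UMIs and CD8-IFNγRKO at 26.1 at 1000, 75.7 at 4000, 79.5 without thinning, 43.3 for 5 receptors and 66.8 for 2 or more. In all of these the direction was kept, but in LN the genotype difference, -0.0101 points, was 0.0131 at 1000 UMIs and 0 for 5 receptors. The number of receptors seen depends on depth by construction, since a cell thinned to fewer UMIs shows fewer of its transcripts. The other 126 values of these shares and counts moved by less than their interval or 1.5 times. Of values for single genes, 281 moved by less than their counting interval, 126 by more, and 1 value beyond the limit changed sign, that of *Cd96* given above. Within the limit, the sign also changed for *Cd160* in the tumor contrast (from -0.23 to 0.16 against the T cell list and 0.14 per cell), for *Cd96* of tumor over LN in control (from -0.12 to 0.77 per cell), and for *Btla* and *Cd160* in LN, where values stayed near 0. Depth limits *Pdcd1*, *Lag3* and *Havcr2* in LN, *Btla* in tumors, and any receptor in 1 cell.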
